A study of Ovis aries with 15 samples.

Results

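The 6 globin genes described here are the rows of a fetal sheep liver count table named HBM, LOC114110673, LOC101108797 and HBQ1, which lie in the alpha cluster, and HBB and LOC101106199, which lie in the beta cluster. They were chosen by gene name, with earlier results of these data known, and make up 6 of the 31411 genes in the table. All 6 passed the filter on low counts. Between the earliest and the latest stage 5 of them fell, as did 27.9% of all tested genes (55% changed in either direction), while HBB did not pass the test. Of the counts of both beta genes, HBB supplied 82.0% ± 28.9 at gestational day 144 (SD, n = 6; 93.7% ± 3.84 without 1 library that stood apart) and 0.442% ± 0.154 at day 100 (SD, n = 4).

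Haemoglobin, the oxygen carrier of red cells, joins alpha-type chains with beta-type chains, each holding a haem. The genes of each kind sit side by side in a cluster, and during development red cells change which genes of a cluster they transcribe. Fetal liver is a main site of red cell formation before the bone marrow takes over that role, and its maturing red cells carry very large amounts of globin messenger RNA.

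Poly(A)-selected RNA of fetal sheep (Ovis aries) liver was sequenced at GD100, GD124 and GD144, where GD is the gestational day, in 4, 5 and 6 libraries, to follow the transcriptome over gestation. The labels name no treatment or genetic change for any group, without stating that there was none, and give neither breed nor sex. The samples are pieces of whole liver, so hepatocytes, blood-forming cells and blood are measured together, and fewer cells of a type and less RNA per cell cannot be told apart. Library totals ran from 24215612 to 38247295 estimated counts, and the detection floor of 3 counts was 0.0797 to 0.128 counts-per-million units (CPM), covering counting error only. The labels do not say whether each library is a different fetus, so every p-value refers to the spread between these samples. Sample codes begin with different letters at each stage, and any cohort or batch behind those letters cannot be told apart from the stage. Some libraries stood apart. GD144 replicate 3 had the highest level of 5 of the 6 globin genes in its stage, GD144 replicate 6 had the highest level of the sixth, LOC101106199, and GD100 replicates 2 to 4 held 10.6 to 10.8% fractional values in the table, against 5.09 to 6.20% in the other 12 libraries. For the tests and means these libraries move most, values without them stand beside the result.

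LOC114110673 and LOC101108797 carried almost all counts of the alpha cluster. LOC114110673, an alpha cluster gene that the reference annotation leaves without a symbol, had 38167, 53834, 68943 and 29469 CPM in GD100 replicates 1 to 4, scaled by the trimmed mean of M values (TMM). In GD124 replicates 1 to 5 it had 15291, 11321, 15173, 15098 and 23606 CPM. Across the 6 GD144 libraries the lowest value was 51.1, the median 583 and the highest 4824 CPM. The 3 stages did not overlap, and GD144 replicate 3 alone lay above 639.6 CPM at the last stage.

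LOC101108797, its neighbour in the cluster, had 7361, 27351, 21227 and 12596 CPM in GD100 replicates 1 to 4. It had 3740.0, 4836, 1982, 3329 and 10352 CPM in GD124 replicates 1 to 5. The GD144 libraries ran from 21.5 to 2361 CPM with a median of 149. GD124 replicate 5 was above GD100 replicate 1, and GD144 replicate 3 was above GD124 replicate 3, so neighbouring stages overlapped for this gene. The proportion between both genes varied between libraries, with ranges that overlapped across the stages. Of their summed counts, LOC114110673 gave 66.3 to 83.8% in GD100 libraries, 69.5 to 88.4% in GD124 libraries and 67.1 to 82.1% in GD144 libraries. Counts of LOC114110673 were fractional in 14 of 15 libraries and those of LOC101108797 in all 15, so the split of reads between these genes is uncertain.

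HBM and HBQ1, the minor genes of the cluster, are named after the human mu and theta globins. HBM had 333, 699.5, 652 and 359 CPM in GD100 replicates 1 to 4. It had 117, 91.5, 88.3, 93.1 and 190.4 CPM in GD124 replicates 1 to 5, and 0.631 to 52.5 CPM with a median of 3.48 at GD144. No library of one stage overlapped another stage, and the counts of HBM were whole numbers in every library. HBQ1 had 58.7, 151, 104 and 79.3 CPM in GD100 replicates 1 to 4, then 16.6, 21.1, 8.73, 11.7 and 35.5 CPM in GD124 replicates 1 to 5. At GD144 it ranged from 0.150 to 13.7 CPM with a median of 0.700, and GD144 replicate 3 was again the library that reached into the GD124 range. HBQ1 overlaps LOC101108797 in the annotation of assembly ARS-UI_Ramb_v3.0 and its counts were fractional in 11 libraries. Its counts stayed at 0.303 to 0.797 per 100 counts of LOC101108797 over all 15 libraries, and whether counting used the strand is not given in the sources used here, so its level is uncertain.

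**Figure D1:**
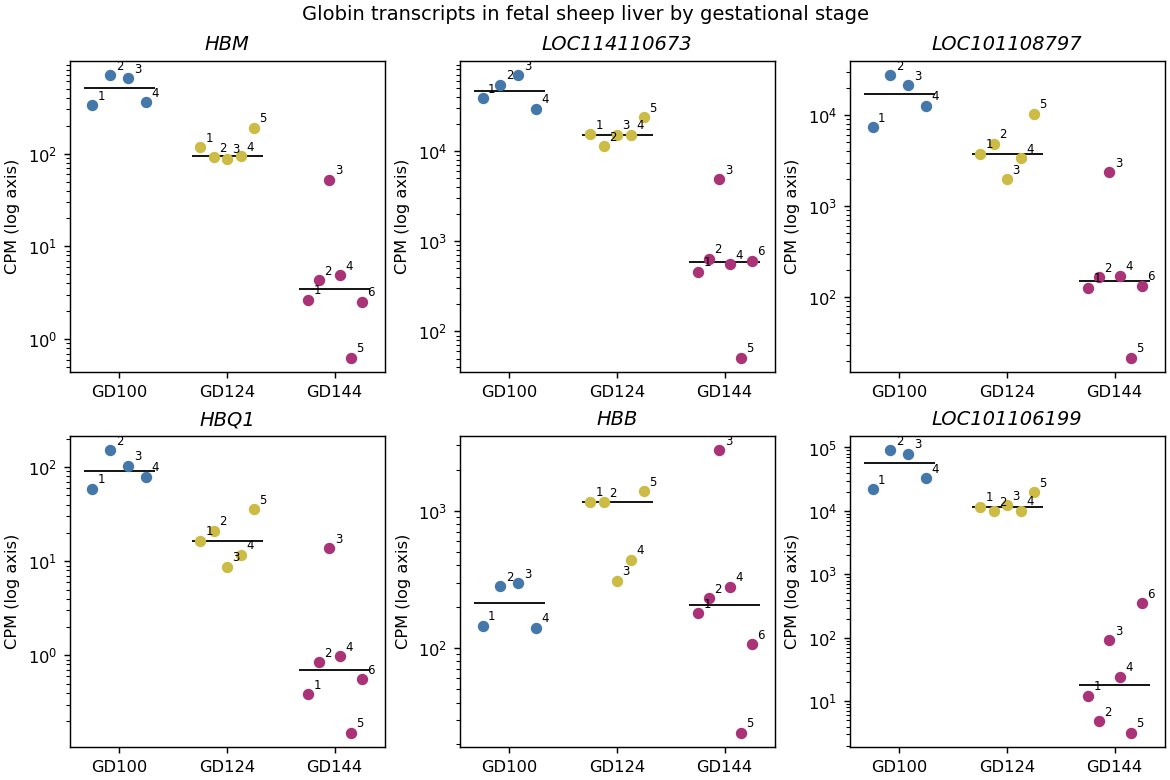
Level of each of the 6 globin genes in each library, in TMM-scaled CPM on a log axis, with the stages GD100, GD124 and GD144 from left to right. Each point is 1 library, numbered by replicate, and the bar is the stage median. The 4 alpha cluster genes and LOC101106199 step down at each stage, while HBB has a median of 214 CPM at GD100, 1154 at GD124 and 205 at GD144.

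The genes of the beta cluster differed in profile. LOC101106199, which the reference annotation also leaves without a symbol, had 21830.2, 90287, 80173 and 33094 CPM in GD100 replicates 1 to 4. It had 11726, 9970.5, 12270.4, 10109 and 19676 CPM in GD124 replicates 1 to 5. At GD144 the 6 libraries had 12.3, 4.89, 92.2, 24.3, 3.18 and 352 CPM in replicates 1 to 6. The stages did not overlap, and GD144 replicate 6, not replicate 3, was highest at the last stage.

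HBB, the beta globin gene of adult haemoglobin, with the synonyms HBBA and HBBB, had the opposite order of GD124 and GD100. It had 146, 282, 297 and 141 CPM in GD100 replicates 1 to 4, and 1166, 1154, 309.9, 439.7 and 1395 CPM in GD124 replicates 1 to 5. At GD144 it had 179, 229.9, 2765, 279, 24.1 and 107 CPM in replicates 1 to 6. Every GD124 library lay above every GD100 library, whereas the GD144 libraries spread 115-fold and covered the range of both other stages. The counts of HBB were whole numbers in every library, and those of LOC101106199 were fractional in 8.

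The stage comparisons were tested across 16977 genes with edgeR's quasi-likelihood F-test, and a gene counts as changed at a Benjamini-Hochberg adjusted p under 0.05. For GD124 against GD100 none of the 6 genes passed in the fit of all 15 libraries, where 34% of all tested genes did (16.6% higher and 17.4% lower, or 2825 and 2949 genes, against 1805 and 4055 with scaling by total counts alone). At an unadjusted p under 0.05 there were 2, as for 44.3% of all tested genes, and DESeq2 called 2 (37.9% of all tested genes). The log2 fold changes were -1.56 ± 0.82 for LOC114110673, -1.82 ± 1.02 for LOC101108797, -2.14 ± 0.93 for HBM, -2.39 ± 0.95 for HBQ1, -2.14 ± 1.07 for LOC101106199, and 2.04 ± 1.06 for HBB (SE), with edgeR adjusted p from 0.0658 to 0.186. Libraries of the stages did not overlap for 5 of the 6, 4 lower and 1 higher, as for 24.3% of all tested genes (12.6% lower and 11.6% higher).

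The count of none also changed with the libraries fitted. With the GD124 and GD100 libraries fitted alone, 6 of 6 genes passed, with edgeR adjusted p from 0.00121 to 0.0175, where 30.4% of all tested genes passed. HBB was then the gene that rose, and the other 5 fell. Without GD144 replicate 3 there were 5, all but LOC101106199, where 34.4% of all tested genes passed. Without GD144 replicate 6 there was 1, LOC101106199, at an edgeR adjusted p of 0.0492, where 33% of all tested genes passed. With replicate 1 as the only GD100 library, where fewer of all tested genes passed, the log2 differences were -0.60 for LOC101108797 and -0.78 for LOC101106199.

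For GD144 against GD124, 5 of 6 genes fell, where 27.5% of all tested genes changed and 15.4% fell (2046 higher and 2617 lower, against 2520 and 2138 with scaling by total counts alone). LOC101106199 averaged 81.5 ± 137 CPM at GD144 (SD, n = 6) and 12750.4 ± 3998 CPM at GD124 (SD, n = 5). The GD144 mean without replicate 6 was 27.4 ± 37.2 CPM (SD, n = 5). Its log2 fold change was -7.29 ± 1.20 (SE) at an edgeR adjusted p of 0.000515, and -8.86 without GD144 replicate 6. The log2 fold changes of the alpha genes were -3.76 ± 0.79 for LOC114110673 (SE, edgeR adjusted p = 0.00268), -3.36 ± 0.88 for HBM (adjusted p = 0.0116), -3.29 ± 0.97 for LOC101108797 (adjusted p = 0.0215) and -2.73 ± 0.89 for HBQ1 (adjusted p = 0.0353). HBB differed by -0.58 ± 0.90 on that scale (SE, edgeR adjusted p = 0.680). For 3 genes, HBM, LOC114110673 and LOC101106199, no GD144 library reached the GD124 range, against 11% of all tested genes that were lower without overlap.

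Single libraries set the calls at the edge. Without GD144 replicate 3, HBB passed as well, at -2.45 on the log2 scale (edgeR adjusted p = 0.00576), and all 6 genes fell, where 26.2% of all tested genes passed. The log2 fold changes of the alpha genes were then -5.12 for LOC114110673, -5.27 for HBM, -5.30 for LOC101108797 and -5.00 for HBQ1. Without GD124 replicate 5, which had the highest GD124 level of all 6 genes, 3 passed, where 21.9% of all tested genes did, and LOC101108797 had an edgeR adjusted p of 0.0586. The call of HBQ1 was lost in 12 of 24 alternatives, with an edgeR or DESeq2 adjusted p of at most 0.0887 over all of them.

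Over the whole span, GD144 against GD100, 5 of 6 genes fell, where 55% of all tested genes changed and 27.9% fell. The 5 genes were lower without overlap between libraries, as were 20.8% of all tested genes. LOC101106199 averaged 81.5 ± 137 CPM at GD144 (SD, n = 6) and 56346 ± 33920.0 CPM at GD100 (SD, n = 4), and 27.4 CPM at GD144 without replicate 6. The log2 difference was -9.43 ± 1.32 (SE) at an edgeR adjusted p of 3.3e-05, and -11.01 without that library. The 4 alpha cluster genes fell by similar amounts, with log2 fold changes from -5.50 for HBM to -5.11 for LOC101108797 and edgeR adjusted p from 0.000103 to 0.00100. Without GD144 replicate 3 they ran from -7.41 for HBM to -6.68 for LOC114110673. For HBB the log2 difference was 1.46 ± 1.01 (SE, edgeR adjusted p = 0.238), which turned to -0.40 without GD144 replicate 3 (adjusted p = 0.582). With replicate 1 as the only GD100 library, LOC101108797 had an edgeR adjusted p of 0.0604. The median log2 change over the 6 genes was -1.98 for GD124 against GD100, -3.32 for GD144 against GD124 and -5.22 for GD144 against GD100 (-5.20 and -7.25 in the later 2 without GD144 replicate 3). Over all tested genes it was 0.02, -0.01 and 0.03 in that order.

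**Figure D2:**
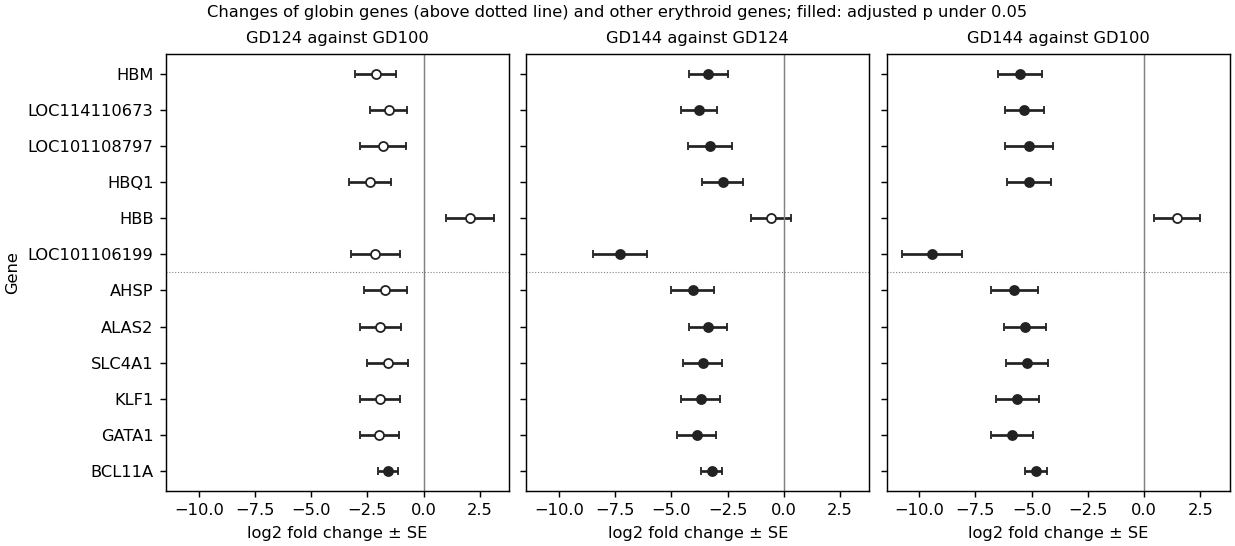
Log2 fold change of the 6 globin genes (upper rows) and of AHSP, ALAS2, SLC4A1, KLF1, GATA1 and BCL11A (lower rows) in 3 stage comparisons, the later stage over the earlier one, with bars of 1 SE from the edgeR fit of all 15 libraries. Filled points passed an adjusted p of 0.05. LOC101106199 lies at -7.29 for GD144 against GD124 and HBB at -0.58, while the alpha cluster genes lie between -3.76 and -2.73.

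Whether a gene changed more after GD124 than before it was asked as a contrast of both intervals, which share the GD124 libraries. None of the 6 genes passed with edgeR, where 5.9% of all tested genes did, and 1 had an unadjusted p under 0.05, as did 23.5% of all tested genes. DESeq2 called 1 (10.7% of all tested genes). For LOC101106199 the later log2 change minus the earlier one was -5.15 ± 1.69 (SE, edgeR adjusted p = 0.0866), and for HBB it was -2.62 ± 1.59 (adjusted p = 0.343). Without GD144 replicate 6 LOC101106199 passed (-6.72, edgeR adjusted p = 0.0153), as did 4.44% of all tested genes. Without GD144 replicate 3 the other 5 genes passed, HBB among them at -4.49 (edgeR adjusted p = 0.0121), as did 7.76% of all tested genes.

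Taken over both clusters, the globin genes held a large part of the sequenced RNA at the earliest stage. Their share of all counts was 6.94, 19.8, 19.1 and 7.62% in GD100 replicates 1 to 4. It was 3.004, 2.64, 2.84, 2.65 and 5.35% in GD124 replicates 1 to 5. At GD144 it ran from 0.00989% in replicate 5 to 0.995% in replicate 3, with a median of 0.105%. The GD144 mean was 0.235%, and 0.0833% without replicate 3. The stages did not overlap, and the lowest and highest libraries differed 2007-fold. GD100 replicates 2 and 3, the 2 libraries highest in globin, had the lowest albumin (ALB) levels, with 15528 and 17099 CPM, against 27105 and 51993 CPM in replicates 1 and 4. The part of this in the globin values was not tested.

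The ratio of alpha to beta counts changed far less than the levels. It was 2.09, 0.906, 1.13 and 1.28 in GD100 replicates 1 to 4, and 1.49, 1.46, 1.37, 1.76 and 1.62 in GD124 replicates 1 to 5. In GD144 replicates 1 to 6 it was 3.07, 3.45, 2.54, 2.42, 2.69 and 1.62. The mean was 1.35 ± 0.516 at GD100 (SD, n = 4), 1.54 ± 0.151 at GD124 (SD, n = 5) and 2.63 ± 0.621 at GD144 (SD, n = 6). All GD144 libraries but replicate 6 lay above all libraries of the other stages, and replicate 6 lay within the GD124 range. The GD144 mean without replicate 6 was 2.83 ± 0.419 (SD, n = 5). The ratio compares summed estimated counts, not counts per transcript length, so a value of 1 does not stand for equal numbers of molecules.

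**Figure D3:**
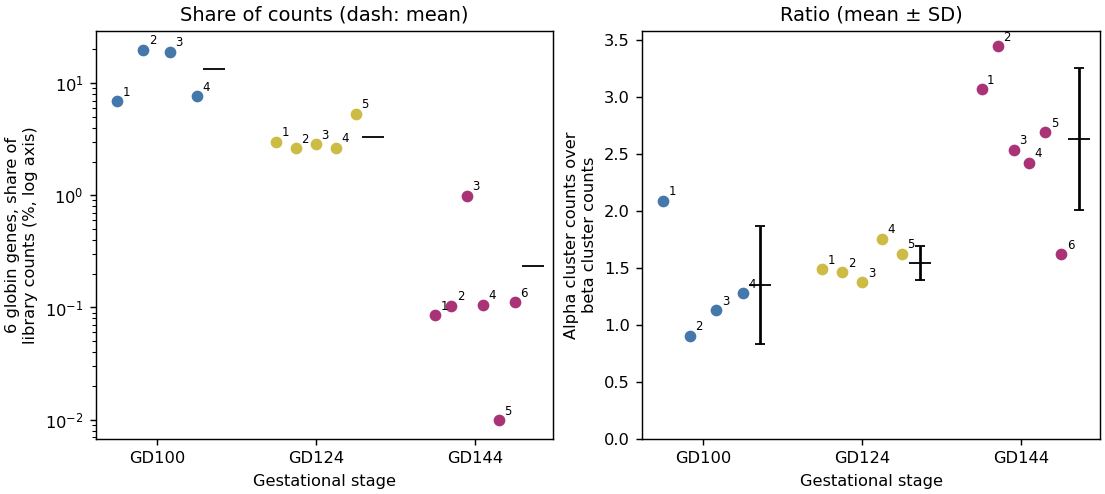
Share of all counts held by the 6 globin genes (left, percent on a log axis) and ratio of alpha to beta cluster counts (right), by library and stage. Each point is 1 library, numbered by replicate. A dash marks the stage mean, with bars of 1 SD on the right. The share has means of 13.4, 3.30 and 0.235% from GD100 to GD144 (0.0833% at GD144 without replicate 3), while the ratio stays between 0.906 and 3.45 in all 15 libraries.

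The make-up of the beta cluster counts turned over almost wholly. HBB gave 0.663, 0.312, 0.369 and 0.425% of the summed counts of HBB and LOC101106199 in GD100 replicates 1 to 4. It gave 9.04, 10.4, 2.46, 4.17 and 6.62% in GD124 replicates 1 to 5. In GD144 replicates 1 to 6 the share was 93.6, 97.9, 96.8, 92.0, 88.3 and 23.3%. The stages did not overlap. GD144 replicate 3, with the highest globin level of its stage, had a share like those of replicates 1, 2, 4 and 5, and replicate 6 lay between these and GD124.

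Counting error is small beside these steps. GD144 replicate 5, the library with the fewest globin counts, held 802 HBB counts of 908, a Wilson 95% interval of 86.1 to 90.3%. GD144 replicate 6 held 3095 of 13268, with an interval of 22.6 to 24.1%. The widest such interval over the 15 libraries was 4.18 percentage points, and these intervals cover counting error only. The mean share was 6.53% ± 3.29 at GD124 (SD, n = 5), and at GD144 without replicate 6 it was 93.7% ± 3.84 (SD, n = 5).

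**Figure D4:**
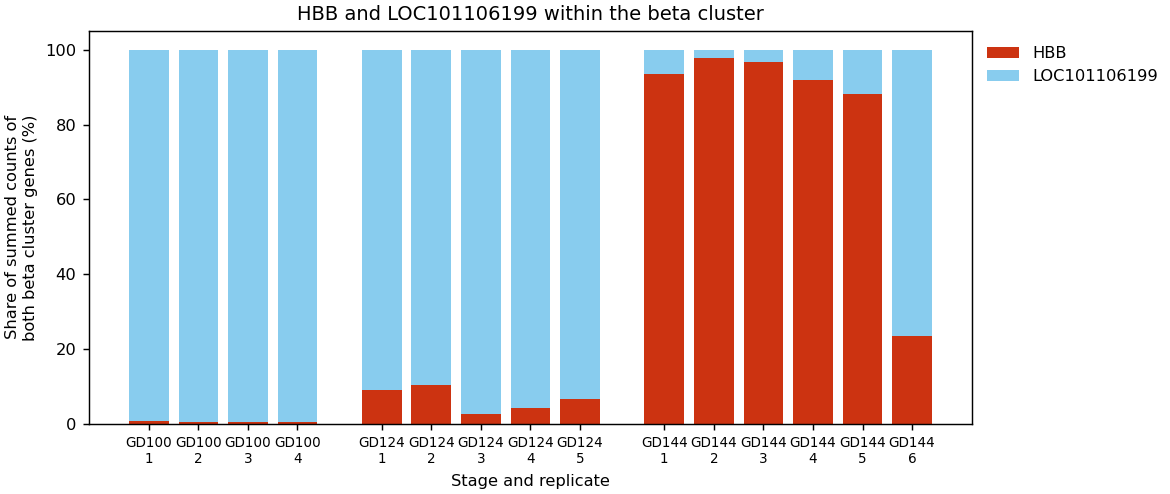
Percentage of the summed counts of both beta cluster genes that came from HBB (lower part of each bar) and from LOC101106199 (upper part). Each bar is 1 library, ordered by stage and replicate. At GD144, 5 libraries lie between 88.3 and 97.9% and replicate 6 at 23.3% HBB, above the 2.46 to 10.4% of GD124 and the 0.312 to 0.663% of GD100.

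Red cell genes other than globins had profiles near those of the alpha cluster genes. A list of 6 erythroid markers found in the table was summed for this: ALAS2, which starts haem synthesis in red cells, SLC4A1, the anion exchanger, the membrane genes EPB42 and RHAG, the alpha globin chaperone AHSP and the transcription factor KLF1. Their sum was 3169, 7527, 6017 and 3013 CPM in GD100 replicates 1 to 4, and 1413, 1383, 1239, 1115 and 2364 CPM in GD124 replicates 1 to 5. In GD144 replicates 1 to 6 it was 32.6, 47.7, 534, 63.8, 5.17 and 45.5 CPM. At GD144 replicate 3 was highest and replicate 5 lowest, as for the summed alpha cluster. Over the 15 libraries the log2 CPM of this sum had a Pearson r of 0.983 to 0.996 with the alpha genes, 0.943 with LOC101106199 and 0.507 with HBB, with the stage trend shared. After the stage means were removed the order of the beta genes was reversed. The r was then 0.942 to 0.981 with the alpha genes, 0.620 with LOC101106199 and 0.943 with HBB.

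For each count of these markers there were 14.5, 10.9, 15.1 and 14.1 alpha cluster counts in GD100 replicates 1 to 4. There were 13.6, 11.8, 13.9, 16.6 and 14.5 in GD124 replicates 1 to 5, and 11.5 to 18.02 with a median of 15.3 in the GD144 libraries. The highest and lowest of the 15 libraries differed 1.65-fold on this scale, against 1238-fold in alpha cluster CPM. The ratio of the GD144 mean to the GD100 mean was 1.11, and 0.952 to 1.22 with any 1 marker left out of the sum.

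The beta genes did not keep such a constant relation. LOC101106199 had 6.89 to 13.3 counts per marker count in GD100 libraries and 7.21 to 9.91 in GD124 libraries. At GD144 it had 0.102 to 0.616 in replicates 1 to 5 and 7.74 in replicate 6. HBB had 0.0375 to 0.0494 counts per marker count at GD100, 0.250 to 0.834 at GD124, 4.38 to 5.501 in GD144 replicates 1 to 5 and 2.35 in GD144 replicate 6. On this scale HBB was separate at every stage, and its mean was 7.74 times as high at GD144 as at GD124 and 12.9 times as high at GD124 as at GD100. GD144 against GD100 gave a 99.8-fold ratio of means for HBB (86.1 to 109.7 with any 1 marker left out, 109.2 without GD144 replicate 6). For LOC101106199 the same ratio was 0.145, and 0.0306 without GD144 replicate 6. These ratios were chosen after earlier results of these data were known and are given as descriptions without a test.

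**Figure D5:**
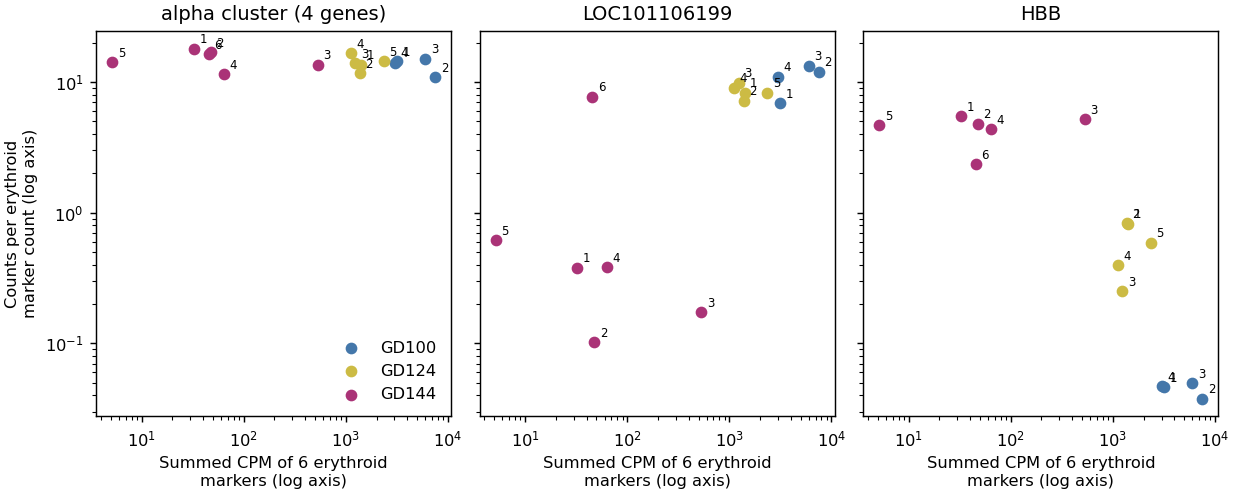
Counts of the alpha cluster, LOC101106199 and HBB per count of 6 erythroid marker genes (vertical log axes), against the summed CPM of these markers (horizontal log axes). Each point is 1 library, coloured by stage and numbered by replicate. The alpha cluster stays between 10.9 and 18.02 in all 15 libraries, LOC101106199 drops at GD144 except in replicate 6 (7.74), and HBB steps up at each stage.

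Known red cell genes were among those nearest to the globin clusters in profile. Over the 15 libraries, the log2 CPM of the summed alpha cluster correlated most with AHSP, E2F2, KLF1, RHAG, SLC4A1, TMCC2, EPB42 and LOC121816918, with Pearson r from 0.995 to 0.998. With the mean of each stage removed TMCC2, RHAG, AHSP, E2F2, KLF1, TRIM10 and SLC4A1 were among the first 8, with r from 0.981 to 0.990. For the summed beta cluster the first 8 were E2F2, ALAS2, SLC4A1, EPB42, TMCC2, KLF1, RBM38 and E2F8 (r from 0.993 to 0.996). For HBB alone the first was PCTP (r = 0.876). By Spearman rank correlation DEDD2, SMOX and GABARAPL2 led for the alpha sum, with KLF1 and TMCC2 among the first 8. LOC132657137, ATAD2 and SMOX led for the beta sum on that measure, with ALAS2 among the first 8. These genes share libraries, depth and, over all libraries, the stage trend, so the values are descriptions only.

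HBB followed the alpha genes more closely within stages than over them. It had a Pearson r of 0.458 to 0.521 with the 4 alpha genes over all 15 libraries, and 0.898 to 0.960 with the stage means removed. LOC101106199 had r of 0.909 to 0.945 with the alpha genes over all libraries and 0.498 to 0.622 with the stage means removed. HBB and LOC101106199 had r of 0.334 and 0.444 on these scales. With the stage means removed the GD144 libraries weigh most: HBB spread 115-fold there, against 2.11-fold at GD100 and 4.50-fold at GD124. At GD144 HBB and the alpha genes were highest in replicate 3 and LOC101106199 in replicate 6. No r without these libraries is given.

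The clusters hold further globin rows. HBE1, the embryonic epsilon globin gene, was almost absent: its counts summed to 74 over 4 libraries at GD100, 19 over 5 libraries at GD124 and 1 over 6 libraries at GD144. It fell by 2.22 ± 0.59 on the log2 scale for GD124 against GD100 (SE, edgeR adjusted p = 0.00916). The size of that fall is uncertain, since the GD124 libraries held 2 to 6 counts, near the floor of 3. HBE1 also passed for GD144 against GD124 (edgeR adjusted p = 0.00208), where no fold is given because the later counts are at the floor. LOC100134870, with the synonym HBBC, the beta C globin known from anaemic sheep, had 12.1, 72.4, 62.8 and 31.5 CPM in GD100 replicates 1 to 4. It had 5.24 to 28.7 CPM at GD124 and 0.375 to 4.43 CPM at GD144. Its log2 fold change was -1.53 ± 0.70 for GD124 against GD100 (SE, edgeR adjusted p = 0.106) and -3.43 ± 0.69 for GD144 against GD124 (adjusted p = 0.00234).

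The alpha cluster rows upstream of HBM, LOC101120884 and LOC114110674, held 167 and 156 counts over all GD100 libraries, 70 and 50 at GD124, and 5 and 9 at GD144. Of the other beta cluster rows, LOC114118425 and LOC114118426 had 0 counts in every library, and LOC101105185, LOC101102928, LOC101105685, LOC101102671 and LOC101105945 each had at most 13 counts over all libraries of a stage. LOC121816646, which overlaps LOC101106199, had 47.9 ± 20.8 CPM at GD100 (SD, n = 4), 14.9 ± 7.15 at GD124 (SD, n = 5) and 0.155 ± 0.182 at GD144 (SD, n = 6), or 0.0853 there without replicate 3. Reads of these overlapping rows cannot be told apart without strand.

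The genes that flank the alpha cluster were also lower at later stages. NPRL3, whose introns carry the main alpha globin enhancers in human and mouse, fell by 1.67 ± 0.25 on the log2 scale for GD124 against GD100 (SE, edgeR adjusted p = 0.000274). For GD144 against GD124 it fell by 1.02 ± 0.22 (SE, edgeR adjusted p = 0.00289). LUC7L, on the other side, fell too, with log2 differences of -0.50 ± 0.14 in the earlier of these comparisons and -0.53 ± 0.13 in the later (SE, edgeR adjusted p = 0.0131 and 0.00603). GD144 replicate 3 was the highest GD144 library for NPRL3 as it was for the alpha genes, at 23.7 CPM against a stage median of 18.7.

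Genes known to control the change between fetal and adult beta-type globin did not move as a block. Of 16 tested, 6 fell and 3 rose for GD144 against GD124, where 27.5% of all tested genes changed and 15.4% fell. For GD124 against GD100, 9 fell and 1 rose, where 17.4% of all tested genes fell and 16.6% rose. With replicate 1 as the only GD100 library fewer of them fell in the earlier interval, as among all tested genes. BCL11A, which represses fetal globin genes in human and mouse, averaged 1.11 CPM at GD144 (0.627 without replicate 3) and 10.6 CPM at GD124, and its log2 difference was -3.22 ± 0.45 (SE, edgeR adjusted p = 0.000146). For GD124 against GD100 it fell by 1.59 ± 0.46 (SE, edgeR adjusted p = 0.0154). LIN28B, a fetal RNA-binding protein that lowers BCL11A protein in human cells, fell by 2.74 on the log2 scale for GD124 against GD100. It also passed as lower for GD144 against GD124 (edgeR adjusted p = 0.00811), where no fold is given because its mean of 0.0833 CPM at GD144 lies within the floors of the libraries. ZBTB7A, the other main fetal globin repressor, fell by 1.02 before GD124 and had a log2 change of -0.02 after it. NFIA rose in both intervals (0.46 before GD124 and 0.78 after it), and NFIX rose after GD124 (0.79). With scaling by total counts alone, which moves the median gene by -0.18, no rise in the earlier interval passed. BCL11A and SOX6 are also expressed in other cells of the liver and blood, and these values do not separate the cells.

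Most red cell regulators fell in both intervals. For GD144 against GD124, where 15.4% of all tested genes fell, all 10 tested fell, GATA1 the most (-3.88 ± 0.85, SE) and LDB1 the least (-0.88 ± 0.15). For GD124 against GD100, where 17.4% of all tested genes fell, 8 of them did. GATA1 and KLF1, the factors that switch on globin genes, were the remaining 2, with log2 changes of -1.98 ± 0.87 and -1.94 ± 0.89 for GD124 against GD100 (SE, edgeR adjusted p = 0.0930 and 0.106). Without GD144 replicate 3 all 10 passed there, where 34.4% of all tested genes did, and GATA1 had -5.54 for GD144 against GD124. With replicate 1 as the only GD100 library fewer of the 10 passed for GD124 against GD100, as among all tested genes.

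Of the 13 haem synthesis genes, 10 fell and 2 rose for GD144 against GD124, where 27.5% of all tested genes changed and 15.4% fell. ALAS2, the red cell form of the first enzyme, averaged 28.6 CPM at GD144 and 295 CPM at GD124 (-3.37 ± 0.86, SE, edgeR adjusted p = 0.00977). Without GD144 replicate 3 its GD144 mean was 9.46 CPM and its log2 change -4.96. ALAS1, the form used by all tissues, rose by 1.42 ± 0.22 (SE, edgeR adjusted p = 0.0002), and ALAD rose by 0.53. For GD124 against GD100, 9 fell, as did 17.4% of all tested genes. ALAS2 had a log2 change of -1.93 ± 0.90 there (SE, edgeR adjusted p = 0.113). With replicate 1 as the only GD100 library fewer of them fell in this interval, as among all tested genes.

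For GD144 against GD124, where 15.4% of all tested genes fell, 11 of 12 red cell membrane genes fell. They ran from KEL (-3.97), a blood group antigen, to GYPC (-0.76), a glycophorin. AQP1, a water channel that endothelium also uses, had a log2 change of 0.93 that did not pass. SLC4A1 fell in this comparison (-3.60 ± 0.87, SE, edgeR adjusted p = 0.00712) and had a log2 change of -1.61 ± 0.90 in the earlier interval (adjusted p = 0.183). For GD124 against GD100, where 17.4% of all tested genes fell, 6 membrane genes fell. Without GD144 replicate 3, where 3050 of 16977 tested genes fell, 11 membrane genes did. The later changes of KEL and SLC4A1 were -5.48 and -5.17 without that library. Of 11 red cell enzyme genes, 8 fell for GD144 against GD124 (15.4% of all tested genes). Among them BPGM, which makes the 2,3-bisphosphoglycerate that lowers the oxygen affinity of many haemoglobins, had log2 differences of -2.78 ± 0.34 after GD124 and -1.70 ± 0.36 before it (SE, edgeR adjusted p = 4.5e-05 and 0.0024). CA1, the adult red cell carbonic anhydrase in human, had 0.188 CPM at GD100, 2.10 CPM at GD124 and 0.718 CPM at GD144 on average, with no change that passed.

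AHSP, the alpha chain chaperone, fell by 4.06 ± 0.95 for GD144 against GD124 (SE, edgeR adjusted p = 0.00588; -5.95 on the log2 scale without GD144 replicate 3), and EIF2AK1, the haem-regulated kinase that slows globin translation, also fell (-1.09). Of 4 haem clearance genes in the table, LRP1, the receptor for haem bound to haemopexin, rose in both intervals (0.64 after GD124 and 0.58 before it), HMOX1, which breaks haem down, rose by 0.87 before GD124 (1 of these 2 earlier rises passed with scaling by total counts alone), and HPX, haemopexin itself, had log2 changes of -0.19 and 0.09. BLVRA, which reduces the biliverdin that haem breakdown leaves, fell in both intervals (-1.03 after GD124 and -0.86 before it).

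Markers of other cell types differed between the same stages. Of all tested genes, 16.6% rose and 17.4% fell for GD124 against GD100. For GD144 against GD124, 27.5% of all tested genes changed and 15.4% fell. The 7 hepatocyte markers summed to 34327 to 111998 CPM in GD100 libraries, 120385 to 149515 CPM in GD124 libraries and 99306 to 136985 CPM in GD144 libraries. Of these markers 4 rose and 1 fell for GD124 against GD100, and 2 fell for GD144 against GD124. AFP, the fetal alpha-fetoprotein, fell in both intervals (-7.49 after GD124 and -2.03 before it). No marker of these lists in the table was at 0 in every library. The 5 megakaryocyte markers in the table summed to 116 to 152, 19.3 to 44.3 and 3.66 to 14.8 CPM at these stages, with 5 of 5 lower at GD144 than at GD124. The 5 stem and progenitor markers summed to 106 to 257, 42.9 to 83.1 and 11.5 to 21.7 CPM, and the 6 granulocyte markers to 49.4 to 80.8, 29.2 to 119 and 0.751 to 35.0 CPM. The 5 endothelial markers summed to 152 to 262, 196 to 411 and 400.5 to 613 CPM, with 5 of 5 higher for GD144 against GD124. The 5 Kupffer cell markers summed to 55.0 to 222, 201 to 348 and 253 to 461 CPM. Of these 2 rose for GD144 against GD124 (1 without GD144 replicate 3, where 26.2% of all tested genes passed). For GD124 against GD100, 3 of them rose and 1, VSIG4, fell. The erythroid markers fell in 6 of 6 cases for GD144 against GD124. For GD124 against GD100 none of the 6 passed with edgeR or DESeq2, and 1 had an unadjusted p under 0.05 (44.3% of all tested genes). Without GD144 replicate 3, where 34.4% of all tested genes passed, 6 did. The part of these shifts in the globin levels was not tested.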

How the data were processed

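Libraries of poly(A) RNA from fetal sheep liver were grouped by the gestational stage in the labels. The authors deposited 1 table of estimated counts per gene for 15 libraries, not normalised. Per the submitters' processing notes, DRAGEN, a platform that maps and counts reads, was used. The sources used here give no version, build, annotation or strand setting. These expected counts were rounded before use, moving a library total by at most 27.86. Every per-sample column was used. Symbols, synonyms, neighbours and overlaps came from RefSeq's table of assembly ARS-UI_Ramb_v3.0, in which 6 of 6 globin genes matched, and no coordinates are given because the build of the counts is not stated.

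Differences were tested with edgeR 4.0.16 in R 4.3.3 (quasi-likelihood F-test, TMM factors, robust estimation, 1 fit of 15 libraries, filterByExpr leaving 16977 genes), with Benjamini-Hochberg adjustment over all tested genes and a threshold of 0.05. Standard errors are the log2 fold change divided by the square root of F. Shares and ratios are of rounded counts and have no test, and likeness used log2 CPM with a prior count of 2. The procedure was tested on simulated data. Replicates were checked for duplicates over genes with at least 20 counts, and over 31 pairs chi-square per degree of freedom was at least 43.7. DESeq2 1.42.0, other scalings and filters, a replicate block and leaving out each library were alternatives.

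The globin genes, the gene and marker lists and the tests were chosen with earlier results of these data known. List genes named are those with the largest and smallest passing change, and GATA1, KLF1, ALAS2, AHSP, SLC4A1, BCL11A, CA1 and BPGM whatever their result. ZBTB7A, LIN28B, NFIX, ALAD, AQP1, AFP, VSIG4 and the clearance genes were added after their values were seen. RHD (membrane) and HP and CD163 (clearance) had no row of that name. Some genes of the lists are not reported here.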

Additional observations from a re-analysis of the deposited data

Results flagged for a closer look

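In each stage, the gap of the highest or lowest library to the next was compared with the range of the stage. Of 36 such groups 13 had a library past the 95% limit of Dixon's test. For separate, normally distributed values about 1 in 20 groups, or 1.8, would pass it. These groups share genes and libraries and need not be normally distributed, so 13 cannot be set against 1.8. At GD144, replicate 3 was high for HBM (52.5 CPM), LOC114110673 (4824 CPM), LOC101108797 (2361 CPM), HBQ1 (13.7 CPM), HBB (2765 CPM), the globin share of counts (0.995%) and the erythroid marker sum (534 CPM). These values share 1 library and move together, so they are not separate findings.

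GD144 replicate 6 was high for LOC101106199 (352 CPM) and low for the HBB share of beta cluster counts (23.3%), while its erythroid marker sum of 45.5 CPM lay inside the range of the other GD144 libraries. GD124 replicate 5 was high for HBM (190.4 CPM), LOC101106199 (19676 CPM), the globin share of counts (5.35%) and the erythroid marker sum (2364 CPM).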

How the results depend on the processing

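The fit was repeated under 24 other settings. The falls of LOC101106199, LOC114110673 and HBM for GD144 against GD124 and against GD100 passed in all 24. For GD124 against GD100 the number of globin genes passing was 6 with only the stages compared, 2 with DESeq2 and 0 to 5 with 1 library left out. For GD144 against GD124 it was 3 to 6 with 1 library left out. For the contrast of both intervals it was 1 with the replicate block, 1 with DESeq2 and 0 to 5 with 1 library left out. Over all genes that contrast gave 1002 calls, 325 with the replicate block, 1816 with DESeq2 and 374 (without GD124 replicate 2) to 1745 (without GD100 replicate 4) with 1 library left out. HBB for GD144 against GD100 ran from -0.40 to 1.72 on the log2 scale with 1 library left out, and HBQ1 in the contrast of intervals from -2.61 to 0.39. The causes were not tested.

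With replicate 1 as the only GD100 library, which is then assumed to vary like the other stages, 2912 genes were called for GD124 against GD100, against 5774 in the fit of all libraries. That library had an alpha to beta ratio of 2.09 and an HBB share of 0.663%. Scaling by total counts alone shifted the median gene by -0.18 for GD124 against GD100, -0.10 for GD144 against GD100 and 0.26 for the contrast of intervals, and changed the split of higher and lower calls as given above. No sign of pairing by replicate number was seen. Same-numbered libraries had correlations of -0.155 to 0.144 of their deviations from the stage means, and different-numbered ones -0.171 to 0.181. Of 14 libraries 2 correlated best with their own number. With 4 to 6 libraries per stage this check cannot settle whether libraries were paired. The replicate block gave 4544, 3306 and 8259 calls in the 3 stage comparisons, against 5774, 4663 and 9342. A comparison per coding length was not run, since no transcript lengths were used here.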
